A study of Mus musculus with 11 samples.

Results

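The peaks described here lay in a window of 5 Mb on mouse chromosome 2, from 85000001 to 90000000 in build mm9, that spans the large olfactory receptor gene cluster of that chromosome. They came from peak lists of huntingtin (HTT) ChIP-seq in the striatum, and a peak belonged to the window when its summit lay inside it, whatever its strength. The 7 full lists held 1785 such peaks out of 1298473 in all. A window of equal length on each side served for comparison, a proximal flank from 80000001 to 85000000 with 2224 peaks and a distal flank from 90500001 to 95500000 with 2803. All mice were males of 4 months bred from B6.HttQ111/+ and B6.Htt+/+ parents. Mutant mice (Q111/+) carried 1 knock-in Htt allele with an expanded CAG repeat in every cell, and wild-type (WT) littermates carried 2 unmodified alleles. There were 4 Q111/+ and 3 WT libraries made with the HTT antibody, and 2 input libraries of each genotype, which were not analysed here.

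Olfactory receptors are odour-sensing membrane proteins of sensory neurons in the nose, and their genes stand in long arrays of related genes. An olfactory neuron expresses a single one of these genes, while in most other cell types the arrays are largely silent. Huntingtin is a large scaffold protein with roles in vesicle transport and transcription, and the striatum is the brain region most affected in Huntington's disease. In the RefSeq gene order of build GRCm38, the longest run of olfactory receptor genes on chromosome 2 held 222 of them among 225 protein-coding genes, from Olfr987 to Olfr1274, with Lrrc55 and Ptprj as the neighbours at its ends. That build differs from the one of the peaks, so peaks were not assigned to single receptor genes, and no peak sequence is shown. The peak lists hold no RNA measurement, so silence of the cluster in these samples was not tested.

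The lists ranged from 88920 to 495334 peaks, and their sequencing depth is unknown. Each list's name begins with DB or JP, prefixes that the labels do not explain. DB marks Q111/+ replicates 1 and 2 and WT replicate 1, and JP marks Q111/+ replicates 3 and 4 and WT replicates 2 and 3. The labels do not say that libraries came from separate animals, so p-values measure the spread between these libraries, which may be technical.

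The first comparison asked whether the cluster was poorer or richer in HTT peaks than the chromosome around it. The answer differed with the prefix of the list. The DB lists held 19.2, 15.6 and 81.6 peaks per Mb in the cluster (Q111/+ replicates 1 and 2 and WT replicate 1). Their flanks together held 45.6, 34.5 and 211.1 peaks per Mb. The cluster was thus below both flanks in each DB list, at 0.421, 0.452 and 0.387 of the flank density.

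In the JP lists the cluster held 52.4, 43.0, 103.2 and 42.0 peaks per Mb (Q111/+ replicates 3 and 4 and WT replicates 2 and 3). The flanks held 36.6, 39.0, 84.1 and 51.8 peaks per Mb. Of the JP lists 3 were above their flanks, at 1.43, 1.10 and 1.23 times the flank density, and WT replicate 3 was below, at 0.811. Averaged over the 7 libraries, the log2 ratio of cluster to flank density was -0.44 ± 0.80 (SD, n = 7), a difference smaller than the spread between libraries (two-sided exact sign-flip permutation test, p = 0.203, Benjamini-Hochberg adjusted p = 0.355 over the 7 tests made). Ratios in the JP lists also depended on the flank: against the proximal flank their mean log2 ratio was -0.01 ± 0.17 (SD, n = 4), and against the distal flank 0.40 ± 0.58 (SD, n = 4). Against either flank the DB lists were lower, with means of -0.79 ± 0.05 and -1.60 ± 0.15 (SD, n = 3).

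**Figure D1:**
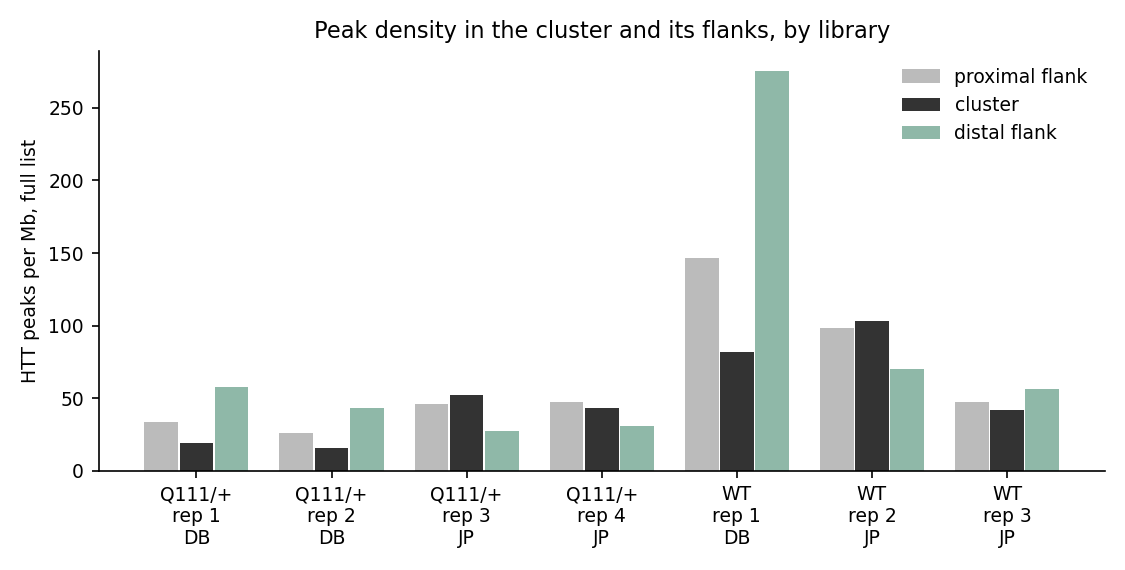
Bars give the number of HTT peaks per Mb (vertical axis) in the proximal flank, the cluster and the distal flank for each of the 7 libraries, 1 bar per window and library. The cluster bar is the lowest of the 3 in each DB library, at 15.6 to 81.6 peaks per Mb, and in no JP library except WT replicate 3, where it stands at 42.0.

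The contrast between prefixes was then measured directly, a test chosen after this pattern was seen. The log2 ratio of cluster to flank density was -1.25 ± 0.11 (SD, n = 3) in the DB lists and 0.16 ± 0.35 (SD, n = 4) in the JP lists, with no overlap. The difference of -1.42 corresponds to a 2.67-fold lower relative density in the DB lists (exact permutation of the libraries, two-sided p = 0.0286, which 3 against 4 libraries cannot go below, adjusted p = 0.1). It was seen within both genotypes, at -1.37 among the WT and -1.53 among the Q111/+ lists. The size moved with the reference: it was -0.78 against the proximal flank alone, -2.00 against the distal flank alone and -1.23 against all autosomes. The distal flank was denser than the proximal one in all 3 DB lists and sparser in 3 of the 4 JP lists. What the prefixes stand for is unknown, and its part in these values was not tested.

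Lists cut to equal length also kept the prefixes apart. Among the 88920 peaks of highest −log10 p, the DB lists held 83, 78 and 51 cluster peaks, and the JP lists held 221, 166, 162 and 139. Under 10 other orders of tied peaks the highest DB list reached 84 and the lowest JP list stayed at 139. Among the 10000 highest peaks the DB lists held 7, 7 and 3 and the JP lists 25, 16, 15 and 9. That narrower gap did not hold under every order of ties: a DB list equalled or passed the lowest JP list in 7 of 10 orders and passed it in 2.

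Set among 486 consecutive windows of 5 Mb on the autosomes, the cluster was among the poorest in the DB lists. It had more peaks than 17, 16 and 17 of these windows in Q111/+ replicates 1 and 2 and WT replicate 1, so 3.50%, 3.29% and 3.50% of windows lay below it. In the JP lists 407, 254, 326 and 85 windows lay below it, the last in WT replicate 3. By the ratio of mean DB to mean JP share, with a log2 value of -1.23 at the cluster, 3 of 485 windows with peaks lay lower, and the median window was at -0.07. Lists of different prefix failed to overlap in many places: DB lists were below JP lists in 35.3% of all 5 Mb windows and above them in 29.3%. The cluster is thus one of many windows where the prefixes did not overlap. By genotype the cluster shares overlapped, where 2.06% of 5 Mb windows were lower and 1.65% higher in Q111/+.

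**Figure D2:**
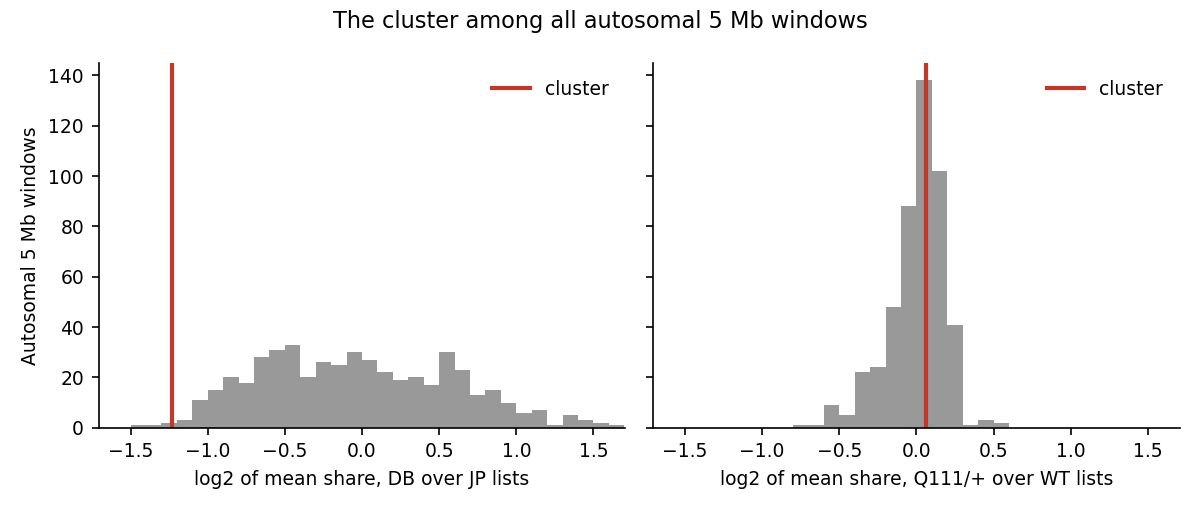
Histograms count the 485 autosomal windows of 5 Mb (vertical axis) by the log2 ratio of mean peak share, for DB over JP lists (left) and for Q111/+ over WT lists (right). The red line marks the cluster, at -1.23 on the left, where 3 windows lie lower, and at 0.06 on the right, where 284 windows lie lower.

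The second comparison asked whether the mutant allele changed HTT peaks over the cluster. The cluster held 96, 78, 262 and 215 peaks in Q111/+ replicates 1 to 4. It held 408, 516 and 210 in WT replicates 1 to 3. The genotypes overlapped, since WT replicate 3 lay below Q111/+ replicates 3 and 4, although every WT list is longer than every Q111/+ list. The log2 difference in cluster peak number was -1.30 (Q111/+ minus WT, two-sided exact permutation test, p = 0.171, adjusted p = 0.355). In lists of equal length the direction turned, with a log2 difference of 0.25 (exact permutation p = 0.714).

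Relative to the flanks no genotype difference was detected. The log2 ratio of cluster to flank density was -0.43 ± 0.90 (SD, n = 4) in Q111/+ and -0.46 ± 0.84 (SD, n = 3) in WT, a difference of 0.03 (exact permutation p = 0.971, adjusted p = 1). Within the DB lists it was 0.17 and within the JP lists 0.33, both higher in Q111/+ (exact permutation within prefixes of their mean, 0.25, p = 0.167, where 0.0556 is the smallest possible). Leaving out 1 library turned the pooled sign in 3 cases, to -0.43 without WT replicate 1, -0.29 without Q111/+ replicate 3 and -0.17 without Q111/+ replicate 4. As a share of the list, the cluster held 0.154 ± 0.080% of peaks in Q111/+ (SD, n = 4) and 0.147 ± 0.063% in WT (SD, n = 3).

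The low density of the DB lists ran along the cluster from end to end. In the 10 windows of 500 kb that make up the cluster, the mean share was 6.45 to 10.1 peaks per 100000 list peaks in the DB lists and 15.1 to 22.8 in the JP lists, higher in JP in 10 of 10 windows. DB lists lay below all JP lists in 8 of these 10 windows and above them in 0, against 24.2% and 20.3% of the 4800 windows tested on the autosomes. In windows of 100 kb 15 of 50 were lower and 0 higher in the DB lists, against 12.4% and 11% over the autosomes. In lists of equal length 8 of 50 were lower and 0 higher, against 6.42% and 7.91%. Windows of the cluster are adjacent parts of the same stretch in the same libraries, so these counts are not independent evidence. The exact permutation test by prefix cannot go below p = 0.0286, so an adjusted p under 0.05 would need most windows at that value, and no call was read from it. At an unadjusted p under 0.05 there were 1152 of the 4800 windows of 500 kb, 7 of them among the 10 of the cluster, and 3075 of the 23978 windows of 100 kb, 5 of them in the cluster.

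At the start of the cluster the last 500 kb of the proximal flank had a DB mean of 23.9 and the first 500 kb of the cluster 8.40. That flank window had the highest DB mean of the 10 in the proximal flank, where the others ran from 9.04 to 20.6 and the one before it had 13.9. At the other end the last window of the cluster had 9.49 and the next 500 kb 19.0. JP means passed these edges from 23.9 to 18.7 and from 22.8 to 17.3. Low DB values were not confined to the cluster, since 3 of the 20 flank windows had a DB mean no higher than the highest cluster window.

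**Figure D3:**
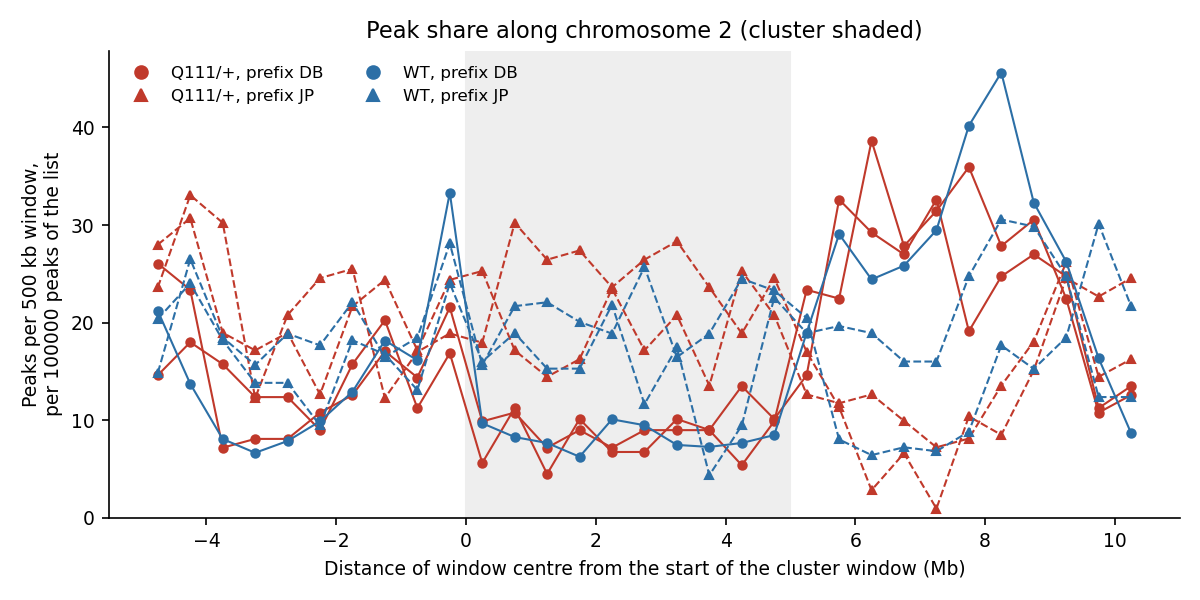
Each line is 1 library, giving the peaks per 500 kb window per 100000 peaks of its list (vertical axis) against the distance of the window from the start of the cluster in Mb (horizontal axis, cluster shaded). Solid lines with circles are DB and dashed lines with triangles JP lists. DB lines drop at the cluster's start from a mean of 23.9 to 8.40 and rise at its end from 9.49 to 19.0, the 23.9 being the highest DB mean of the proximal flank, and most JP lines run above them inside the cluster.

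At a finer scale, windows of 100 kb held a median of 2, 2, 5 and 4 peaks in Q111/+ replicates 1 to 4 and of 7.5, 11 and 4 in WT replicates 1 to 3. Across the 50 windows of the cluster the variance divided by the mean was 0.920 to 1.59, where 1 is the value of Poisson counts. That ratio was not computed for the flanks or the autosomes, so it is not shown to be particular to the cluster. The widest stretch without a summit was 282 kb in Q111/+ replicate 2 and 62.4 kb in WT replicate 1, the longest list. Profiles of different libraries were compared by Pearson's r over the 50 windows, which ran from -0.17 to 0.26 over the 21 pairs of lists, with a median of 0.06. The flanks, with as many windows each, gave a median of 0.18 (-0.05 to 0.52) on the proximal side and -0.07 (-0.48 to 0.52) on the distal side, so the cluster lay between them. Over all 23978 autosomal windows with at least 7 peaks the median r was 0.41. These r values describe windows, which share a library and its depth, and carry no test.

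The 3 windows of 100 kb with the highest mean share over the libraries began at 87700001, 89900001 and 88400001 and held 57, 49 and 44 peaks in the 7 lists together. The 3 poorest began at 86500001, 88600001 and 85100001, with 21, 24 and 23 peaks. The genotypes did not overlap in 3 of the 50 windows. From 87200001 to 87300000 there were 1, 2, 2 and 1 peaks in Q111/+ and 15, 9 and 6 in WT. From 85000001 to 85100000 there were 3, 1, 2 and 4 against 18, 13 and 8. Both were lower in Q111/+ as a share of the list. One window, from 88900001, was higher in Q111/+, with 3, 3, 4 and 3 peaks against 9, 6 and 2 in the longer WT lists. These 3 windows were picked for their values. Over all autosomal windows 2.42% were lower and 1.8% higher in Q111/+ without overlap, so the 2 of 50 lower and 1 of 50 higher in the cluster are near the background. The same limit holds for the exact permutation test by genotype, which after adjustment could call no window at these numbers. It gave 522 of the 23978 windows at an unadjusted p under 0.05, 2 of them in the cluster. In lists of equal length 0 cluster windows were lower and 1 higher in Q111/+, against 1.4% and 1.28%, and with windows of 500 kb 0 were either, against 1.54% lower and 1.81% higher over the autosomes.

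By the numbers inferred here, cluster peaks rested on few fragments, as did those of the flanks. The number of sequenced fragments at a summit was inferred from the deposited fold and −log10 p through a scale fitted per library. A scale divided by a small whole number fits nearly as well. The largest was taken, which gives the smallest fragment numbers. With it the median cluster peak of WT replicates 1 and 2 had 4. In the other 5 libraries the median was 5, and in each library it equalled that of the proximal flank. Peaks of at least 7 fragments made up 9.38%, 6.41%, 13.4% and 11.6% of cluster peaks in Q111/+ replicates 1 to 4. In WT replicates 1 to 3 they made up 3.43%, 2.91% and 13.8%. The flanks gave 12.1%, 9.28%, 13.7% and 12.6% in Q111/+ and 6.92%, 3.45% and 16.2% in WT, a difference that was not tested. The share was smaller in the cluster in 7 of 7 libraries against the flanks together, but not against each flank: the proximal flank had 2.24% in WT replicate 2 and the distal flank 12.6% in Q111/+ replicate 3, both below the cluster. The authors' fold enrichment had a median of 2.78 to 3.49 over the 7 lists in the cluster. Median peak width was 188.75 ± 14.5 bp (SD, n = 4) in Q111/+ and 187 ± 18.9 bp (SD, n = 3) in WT.

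Strength within a list was compared by rank. Cluster and flank peaks had the same median percentile rank of −log10 p in 6 of 7 lists, where many peaks share one value of −log10 p. Q111/+ replicate 2 differed, by 17.7 percentile points, with cluster peaks ranked higher. The mean difference was 2.53 points, and 0 without that library. With 6 of 7 differences at 0, the exact sign-flip permutation test could only return p = 1 (adjusted p = 1). It therefore could not decide whether strength differed. The mean difference was 0 against the proximal flank alone and 5.23 against the distal flank alone, 5.13 by rank of fold and 5.14 with weaker peaks, those under 2 in −log10 q, left out (exact permutation p = 0.375 to 1). In Q111/+ replicate 2 the median percentile was 37.7 in the distal flank and 61.7 in both the cluster and the proximal flank. Mean rank, an alternative that was not planned, has fewer ties at 0. By it cluster peaks stood 3.00, 14.2, 4.63 and 0.52 points above flank peaks in Q111/+ replicates 1 to 4. WT replicate 3 had 1.96, and WT replicates 1 and 2 went the other way, at -2.51 and -0.76 (exact sign-flip permutation p = 0.1875, unadjusted).

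Peaks with a raised local background were a smaller share of peaks in the cluster than around it in each of the 7 libraries. In MACS a peak is scored against the highest of several background estimates, genome-wide and local. The lowest value among a random sample of a list's peaks is called its floor here, and a peak above it by more than 0.1% counted as raised. Among cluster peaks 13.5%, 15.4%, 8.40% and 16.3% had a background above the floor in Q111/+ replicates 1 to 4. In WT replicates 1 to 3 the shares were 9.80%, 12.4% and 11.9%. The flanks together gave 50.2%, 58.3%, 26.0% and 41.3% in Q111/+ and 45.2%, 27.5% and 45.8% in WT. Cluster and flank values did not overlap. The mean difference was -29.5 percentage points (two-sided exact sign-flip permutation test, p = 0.0156, the smallest possible with 7 libraries, adjusted p = 0.1), and it was chosen after its values were seen. The share was also lower in 7 of 7 libraries against the proximal flank alone, with a mean difference of -13.0 points, and against the distal flank alone, with one of -43.2 points. DB and JP lists overlapped in the cluster, at 12.9 ± 2.84% (SD, n = 3) and 12.2 ± 3.23% (SD, n = 4). The labels do not say whether the background was taken from the ChIP library or from an input.

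**Figure D4:**
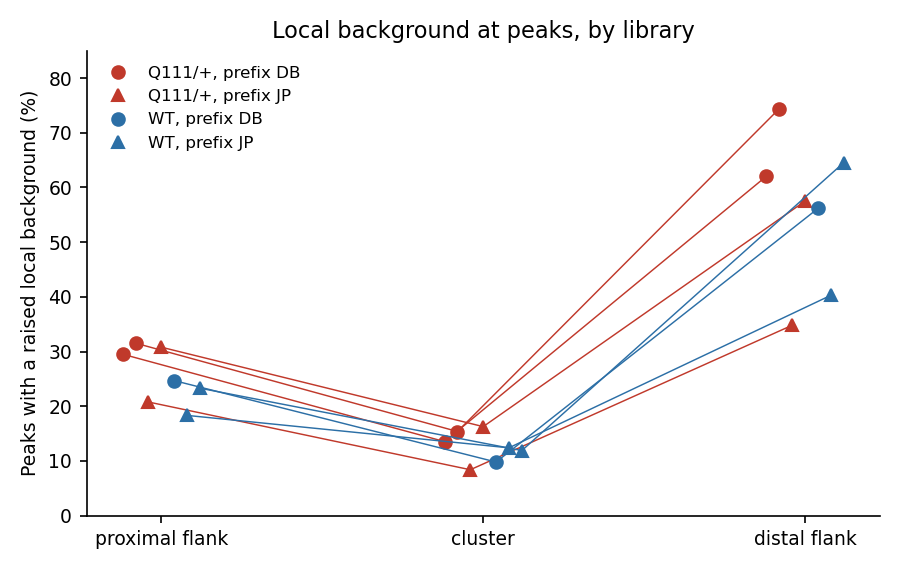
Points joined by a line are 1 library, giving the percent of its peaks with a local background above the library's floor (vertical axis) in the proximal flank, the cluster and the distal flank. All 7 libraries have their lowest value in the cluster, between 8.40% and 16.3%.

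Most cluster regions were called in a single library, as were most regions of the flanks and of the series. When overlapping peaks of the 7 full lists were merged (at least 1 bp), the cluster held 1550 regions, of which 1363 were called in 1 library, 158 in 2 and 29 in 3 or more, among them 2 in 6 libraries and 0 in all 7. Regions called in at least 3 libraries made up 1.87% of cluster regions, 1.92% of flank regions and 2.86% of all 1075255 regions of the series. In lists of equal length 16.9%, 19.2%, 11.8% and 16.3% of cluster peaks in Q111/+ replicates 1 to 4 overlapped a peak of another library, against 18.8%, 15.9%, 19.3% and 14.8% of flank peaks. The WT lists gave 9.80%, 21.6% and 21.6% in the cluster and 20.8%, 21.3% and 22.4% in the flanks. The mean difference of -2.30 percentage points was within the spread between libraries (exact sign-flip permutation test, p = 0.344, adjusted p = 0.481). Its sign rested on WT replicate 1, which shared 5 of its 51 cluster peaks. Without that library the difference was 1.88 points (exact permutation p = 0.344), and without WT replicate 2 it was -5.04 points (exact permutation p = 0.0312). With all libraries it was -5.02 points against the proximal flank alone (exact permutation p = 0.156). Against the distal flank alone it was -0.50 points (exact permutation p = 0.734).

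Among the strongest peaks, an alternative setting, recurrence in the cluster was lower than in the flanks together. With 10000 peaks per list, 2 of the 82 cluster peaks overlapped a peak of another library, 1 in Q111/+ replicate 3 and 1 in Q111/+ replicate 4. In the flanks 32 of 186 did so. At this list length the flanks were not taken apart, and no share over the whole series was computed. The share was lower in the cluster in 7 of 7 libraries, by a mean of -16.5 percentage points (exact sign-flip permutation p = 0.0156, unadjusted). Each list holds 3 to 25 such cluster peaks, so the share of any 1 library is imprecise. Under 10 other orders of tied peaks 2 to 6 cluster peaks were shared, and the share was lower in 7 of 7 libraries in 8 orders and in 6 of 7 in the other two. In full lists the difference was -6.54 points (exact permutation p = 0.0312), with WT replicate 1 opposite to the others. Pairs of JP lists shared 8 to 12 cluster peaks in lists of equal length, pairs of DB lists 0 to 2 and mixed pairs 0 to 6. The DB lists hold fewer cluster peaks.

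Peaks in the 10 regions called in the most libraries ranked from low to high in their lists, at percentiles of −log10 p from 0.556 to 99.3. The lowest was in WT replicate 1 at the region from 88455685. The highest was in WT replicate 2 at the region from 86093186. At 86682643 to 86683503, called in 6 libraries, the summits held 8, 5 and 6 fragments in Q111/+ replicates 1, 2 and 3 and 4, 5 and 5 in WT replicates 1 to 3. Fold enrichment, as the authors deposited it, ran from 3.05 in WT replicate 2 to 5.33 in Q111/+ replicate 1, and Q111/+ replicate 4 had no peak. Its background was above the floor in WT replicate 2, at 1.51 fragments per position, and at the floor in the other 5 libraries. The second region called in 6 libraries, at 88455685 to 88456201, lacked Q111/+ replicate 2. Its summits held 7, 9 and 12 fragments in Q111/+ replicates 1, 3 and 4 and 4, 6 and 9 in WT replicates 1 to 3. Background there was above the floor in each of the 6, at 1.49 to 3.65 fragments per position, and fold enrichment was 1.97 to 4.27.

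Another 2 regions were called in 5 libraries, at 89739333 to 89739851 and 89927542 to 89928448, each in all 3 WT and in 2 Q111/+ lists. The first held 7 and 5 fragments in Q111/+ replicates 3 and 4 and 4, 6 and 5 in WT replicates 1 to 3. At the second there were 5 fragments in Q111/+ replicates 1 and 4 and 7, 6 and 4 in WT replicates 1 to 3. The next 6 by the naming rule were called in 4 libraries each. They began at 86428114, 87288611, 86093186, 88375414, 87746595 and 88158319, and their summits held 3 to 9 fragments. No summit in these 10 regions had more than 12 fragments.

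No cluster region was called in all Q111/+ and no WT list, where the series had 29 such regions (0.0027%). In all 3 WT and no Q111/+ list 2 regions were called, 0.129% of cluster regions, against 0.321% over the series and 0.211% in the flanks. The first, at 87687045 to 87687190, held 4, 5 and 5 fragments in WT replicates 1 to 3, each over a background above the floor. The second, at 88551230 to 88551732, held 3, 6 and 5. These 2 regions rest on 3 to 6 fragments, and the WT lists are longer. By prefix 1 cluster region was called in all DB and no JP list and 0 in all JP and no DB list, against 0.0567% and 0.0167% over the series.

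The strongest cluster peaks of each list, by −log10 p, differed in how many other lists overlapped them. Of all cluster peaks in the full lists 23.6% overlapped a peak of another list, and of flank peaks 27.2%. In Q111/+ replicates 1 to 4 they held 8, 8, 9 and 8 fragments, with 3, 1, 2 and 3 peaks tied at the top. Of these 9 peaks 7 overlapped no peak of another list, 1 of replicate 4 overlapped peaks of WT replicates 2 and 3, and 1 of replicate 1 was the region from 86682643 called in 6 libraries. WT replicate 1 had its strongest peak at 85735254 to 85735561, with 13 fragments and a fold enrichment of 10.1, and WT replicate 2 alone overlapped it. The strongest peak of WT replicate 3, at 87731297 to 87731682, held 14 fragments with a fold enrichment of 8.33 and was overlapped by Q111/+ replicate 4 alone. WT replicate 2 had 9 fragments at 86093288 to 86093677, which 3 other lists overlapped and which lies in the region from 86093186 named above.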

How the data were processed

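Peak lists of 7 HTT ChIP-seq libraries were analysed, 1 list per library. Per the labels' protocols, chromatin was cut by micrococcal nuclease and sonication. The submitters' processing notes name build mm9, Bowtie2 2.2.5 and MACS2 2.1 without their roles, and the deposited lists' names give MACS, pairs and a p of 0.001. The authors deposited a fold column (ratio to the local background), −log10 p and −log10 q columns, and a score derived from the −log10 p, which was not used.

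Peaks were placed by summit, and coordinates are 1-based. Density ratios were tested by exact sign flips over 7 libraries, and groups by exact permutation over 35 splits. The Benjamini-Hochberg method was applied over 7 tests. Fragments (k) were recovered from fold = (k × scale + 1)/(background + 1) and a Poisson p. A scale was searched per library on 400 peaks with a tolerance of 0.02 in −log10 p, and all peaks of the 3 windows matched. Of the scales that matched nearly as well as the best, the largest was taken, so fragment numbers depend on that choice. Shortened lists took the peaks of highest −log10 p. Tied peaks were taken by fold, then in a seeded random order. Windows needed 7 peaks over the lists. The named regions were the 10 called in most libraries, ranked by lowest percentile of −log10 p, and up to 3 called in 1 genotype alone. Named 100 kb windows were the 3 richest and 3 poorest. Scripts were tested on simulated data. The window and lists were chosen with earlier results of these data known, including differences between prefixes. Alternatives were other thresholds, list lengths, references, overlap rules, blocks and each library left out, and other tie orders. Python 3.11.15, matplotlib 3.10.9, scipy 1.17.1, pandas 2.3.3 and numpy 2.4.6 were used.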

Additional observations from a re-analysis of the deposited data

Results flagged for a closer look

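The relative density of the cluster differed between lists of the 2 name prefixes. The log2 ratio of cluster to flank density was lower in the DB than in the JP lists by a difference of -1.42 (exact permutation of the libraries, two-sided p = 0.0286, adjusted p = 0.1), with each of the 3 DB lists below each of the 4 JP lists. That test was chosen after the pattern was seen, and 0.0286 is the lowest p that 3 against 4 libraries allow. No cause of this difference was tested. For 15 measures of the cluster, the 4 Q111/+ values were also searched for one lying far apart, and 0 were found.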

How the results depend on the processing

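The mean log2 ratio of cluster to flank density kept its sign and stayed short of significance under all 16 alternatives, at -0.61 to -0.29 with each library left out. The genotype difference in that ratio, 0.03, was -0.057 against the proximal flank alone and -0.17 with a replicate block (exact sign flips over 3 pairs, p = 1, where 0.25 is the smallest possible), and ran from -0.43 to 0.40 with each library left out. The labels tie replicate numbers to no animal or batch, and deviations of same-numbered libraries correlated at 0.52, -0.42 and 0.12 over 100 kb windows, so the pairing is by number only. For cluster peak number the replicate block gave -1.50 (exact permutation p = 0.5) and lists of equal length 0.25. The prefix difference was -1.57 to -1.30 with each library left out and -1.45 with genotype as a block (exact permutation p = 0.0667 to 0.1 and 0.0556, the smallest these designs allow). Recurrence differed by -6.54 points in full lists, -16.5 with 10000 peaks per list (-18.1 to -13.9 under other orders of ties), and from -5.04 to 1.88 with each library left out. In lists of equal length it differed by -5.02 points against the proximal and -0.50 against the distal flank alone. Peak strength, 2.53 points, was 0 to 5.23 over its 12 alternatives. Non-overlapping windows were 1 higher and 2 lower in Q111/+ at 100 kb, 0 lower in lists of equal length, and 0 and 0 at 500 kb. The cause of these changes was not tested. Medians of 4 or 5 fragments per peak, at the scale chosen, limit what any single region can show.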

Other observations

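The flanks of the cluster also set the prefixes apart, in the opposite direction on the distal side. The log2 ratio of distal to proximal flank density was 0.80, 0.73 and 0.91 in the DB lists (Q111/+ replicates 1 and 2 and WT replicate 1) and -0.77, -0.63, -0.49 and 0.26 in the JP lists (Q111/+ replicates 3 and 4 and WT replicates 2 and 3). WT replicate 3 was the one JP list with more peaks in the distal flank, and also the one JP list with a cluster below its flanks. In 500 kb windows the JP mean share was above the DB mean in 8 of 10 windows of the proximal flank and in 2 of 10 of the distal flank, against 10 of 10 in the cluster. In the cluster the profile of 100 kb windows had a median Pearson's r of 0.05 over the 9 pairs of lists that share a prefix and 0.15 over the 12 pairs that do not. The medians were 0.18 and 0.19 in the proximal flank, 0.39 and -0.24 in the distal flank, and 0.56 and 0.22 over all autosomal windows, as a description with no test.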
